A study of Mus musculus with 7 samples.

Results

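The secreted Wnt ligands Wnt2, Wnt4 and Wnt5a and the secreted Wnt antagonists Sfrp1, Sfrp2, Sfrp4, Frzb, Wif1, Dkk2 and Dkk3 were followed through 7 tumor libraries. These 10 genes were chosen by name and were found by symbol among the 53465 genes of the expression table. All 10 were present, and all 10 were among the 15645 genes that passed the filter on low counts.

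Wnt proteins are lipid-modified signals that bind Frizzled receptors on nearby cells. With the co-receptors Lrp5 and Lrp6 they stabilize β-catenin, and through receptors such as Ror2 some of them, Wnt5a among them, act without β-catenin. The Sfrp proteins, Frzb and Wif1 bind Wnt ligands outside the cell, whereas Dkk2 acts on the Lrp co-receptors. In many tissues fibroblasts and other mesenchymal cells are a source of both ligands and antagonists.

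The tumors grew from EMT6, a cell line of mouse breast carcinoma, after 500000 cells had been placed in the mammary fat pads of female Balb/c mice. EMT6-P tumors (n = 3) grew under an isotype control antibody, and EMT6-PTR tumors (n = 3), a variant with acquired resistance that the labels write as PDR, grew under αPD-L1 antibody. Both antibodies were dosed at 250 μg per mouse every 3 days until endpoint. The seventh library was 1 metastasis of EMT6-PTR, without a replicate, and its organ is not named in the labels. EMT6-PTR is 1 selected variant, so that resistance and other properties of that variant cannot be told apart. The labels do not say whether the replicates came from separate mice. The study's legend gives n = 3 for this sequencing and describes replicates as technical where nothing else is stated. The libraries are called tumors below without that being settled, and p-values here measure the spread between these samples.

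Total estimated counts ranged from 20430110 to 25213472 per library. Expression is given as CPM, read counts scaled to library size by the upper-quartile method, for which 3 counts, the limit that a count of 0 allows, come to less than 0.17 CPM in every library. Markers of the cell types a tumor can hold were summed per library. In EMT6-PTR replicate 3, 8 fibroblast markers summed to 16643 CPM, against 3497 to 6294 CPM in the other 5 primary tumors. There 5 mammary epithelial markers summed to 608 CPM, against 2368 to 2720 CPM. Of these 5, 3 were lowest in that library, but Epcam, at 8.83 CPM, and Krt5, at 1.13 CPM, were not. Skeletal muscle markers were highest in EMT6-PTR replicate 1, where all 5 exceeded the other primary tumors and the sum was 3323 CPM, and in EMT6-PTR replicate 2 a single gene, CT010467.1, took 13.8% of all counts. The epithelial marker Krt8 was found in every library at 505 CPM or more, while Epcam stayed between 4.79 and 10.6 CPM in the primary tumors. Because whole tissue was sequenced, fewer cells of a type and less RNA per cell cannot be told apart.

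Promoters are shown for the ligand and the antagonist with the highest levels in the metastasis relative to every primary tumor, Wnt4 and Sfrp2, and for Dkk2, which has the fewest CG pairs of the members found. RefSeq promoters (GRCm38.p6, 250 bases before to 50 after the start) were found for 6 of the 10 genes. Only bases that also precede the start in the GENCODE annotation are printed, 5′ to 3′ on the gene's own strand, with CG pairs in capitals. Wnt4 is shown from chr4:137277385-137277488 on the plus strand, Sfrp2 from chr3:83766071-83766320 on the plus strand, and Dkk2 from chr3:132085042-132085291 on the plus strand.
Wnt4: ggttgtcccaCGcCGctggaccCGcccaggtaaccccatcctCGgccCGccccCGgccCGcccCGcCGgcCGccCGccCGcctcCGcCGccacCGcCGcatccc
Sfrp2: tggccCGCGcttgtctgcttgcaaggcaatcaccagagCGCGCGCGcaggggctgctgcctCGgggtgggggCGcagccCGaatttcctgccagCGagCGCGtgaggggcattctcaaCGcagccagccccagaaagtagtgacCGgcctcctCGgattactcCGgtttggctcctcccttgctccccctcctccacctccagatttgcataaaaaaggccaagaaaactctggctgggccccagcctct
Dkk2: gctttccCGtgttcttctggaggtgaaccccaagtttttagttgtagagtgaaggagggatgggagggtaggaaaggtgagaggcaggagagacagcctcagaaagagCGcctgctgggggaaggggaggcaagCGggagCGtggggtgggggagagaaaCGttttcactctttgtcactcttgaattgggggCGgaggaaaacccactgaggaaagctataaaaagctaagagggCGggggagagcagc
Over the whole window, Wnt4 held 51 CG pairs, and 99.3% of all 32851 promoters held fewer. Sfrp2 held 22 and Dkk2 held 11, against a median of 7 over all promoters, and Wnt2, Wif1 and Frzb held 27, 25 and 20. The core letters CTTTGAT, at which TCF and LEF factors can bind, were searched on both strands and lay in none of the 6 windows and in 3.73% of all promoters. The letters GAAANNGAA, part of an interferon response element, also lay in none of the 6 and in 8.56% of all promoters. TATAAA lay in Dkk2, 32 bases before its start, and on the opposite strand in Wif1, with 13.6% of all promoters holding it.

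Setting EMT6-PTR against EMT6-P asked whether secreted Wnt signals and their antagonists differed between tumors grown under αPD-L1 and control tumors. None of the 10 genes passed the test, and for all 10 the values of the 3 EMT6-PTR tumors overlapped those of the 3 EMT6-P tumors. By the group means of the primary tumors, the antagonists Sfrp2 and Dkk3 were the most abundant of the set. By the same means, Wnt5a was the most abundant of its 3 ligands. Across all genes, the quasi-likelihood test of edgeR, adjusted by Benjamini-Hochberg, called 0.0% of 15645 genes at 0.05, and limma-voom also called 0.0%. DESeq2 gave an adjusted p to 13694 genes and called 2.05% of them, 281 genes (138 with a higher and 143 with a lower level in EMT6-PTR). None of the 6 members with an adjusted p from DESeq2 was called, and Wnt2, Wnt4, Sfrp4 and Frzb had none. An unadjusted edgeR p under 0.05 was reached by 1786 genes or 11.4%, and by none of the members, whose smallest unadjusted p was 0.293.

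**Figure D1:**
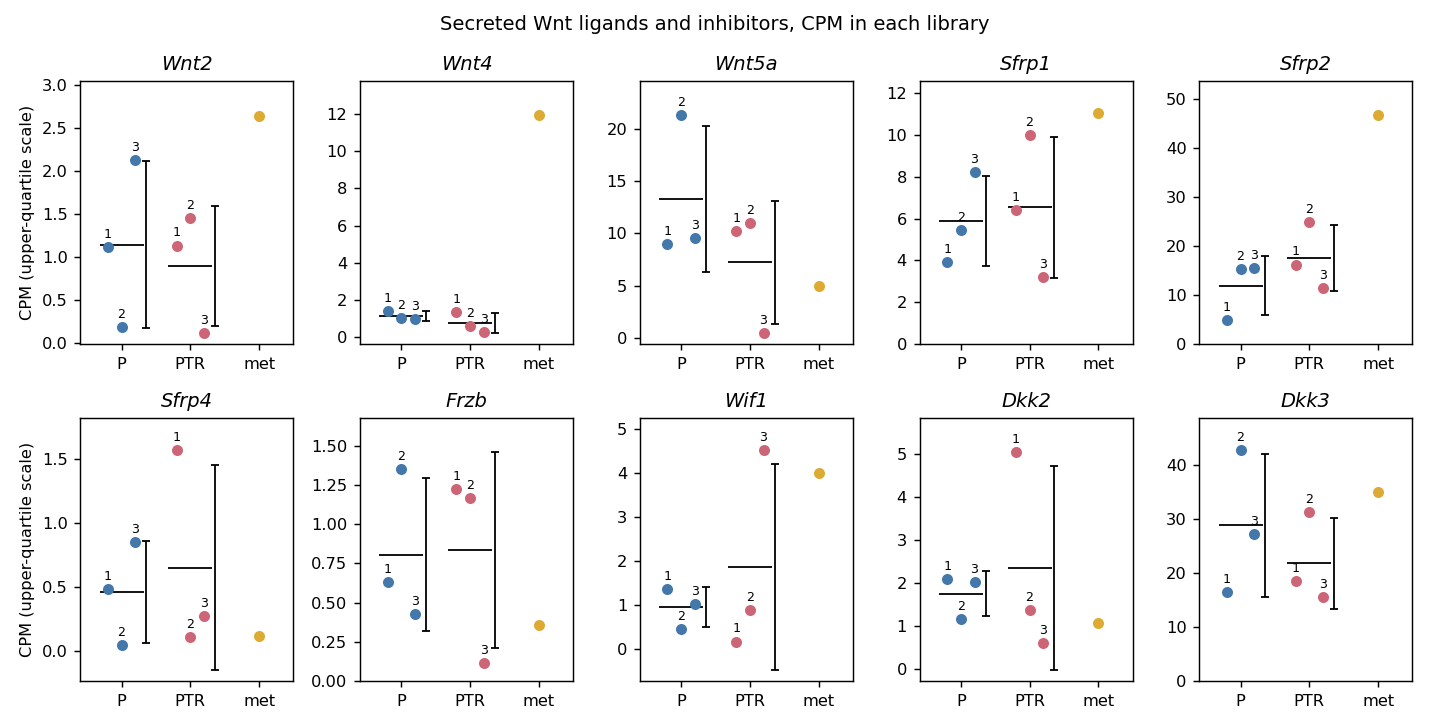
CPM of each secreted Wnt ligand and inhibitor in the EMT6-P tumors (P), the EMT6-PTR tumors (PTR) and the metastasis (met). Points are libraries with their replicate number, horizontal lines are group means and vertical bars are SD (n = 3). The points of P and PTR overlap for all 10 genes, and replicate 3 of PTR is the lowest primary tumor for 7 of them.

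Wnt5a (ENSMUSG00000021994.15, chromosome 14, 28504750 to 28527448, plus strand), a ligand best known for signaling without β-catenin, was at 9.02, 21.3 and 9.53 CPM in EMT6-P replicates 1 to 3. In EMT6-PTR it was at 10.3, 11 and 0.430 CPM. EMT6-PTR replicates 1 and 2 lay within the EMT6-P range, and replicate 3, with 11 counts, lay far below every other library. The highest EMT6-PTR tumor was 25.5 times the lowest, compared with 2.36 times in EMT6-P. The group means were 13.3 ± 6.95 CPM in EMT6-P and 7.22 ± 5.89 CPM in EMT6-PTR (SD, n = 3 each), and the log2 fold change was -0.88 (SE 0.97, 95% interval -3.22 to 1.45, edgeR adjusted p = 0.715). Without EMT6-PTR replicate 3 it was -0.32.

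Wnt4 (ENSMUSG00000036856.4, chromosome 4, 137277489 to 137299726, plus strand), a ligand of mammary duct side branching, was low in all primary tumors. It stood at 1.41, 1.03 and 0.943 CPM in EMT6-P and at 1.35, 0.613 and 0.274 CPM in EMT6-PTR. EMT6-PTR replicates 2 and 3 were below every EMT6-P tumor and replicate 1 was within their range. The log2 fold change was -0.59 (SE 0.59, 95% interval -2.02 to 0.83, edgeR adjusted p = 0.688). Leaving out replicate 3 of EMT6-PTR brought it to -0.18, and leaving out replicate 1 brought it to -1.37, where edgeR gave an unadjusted p of 0.0486 and an adjusted p of 0.275.

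Wnt2 (ENSMUSG00000010797.6, chromosome 6, 17988940 to 18030585, minus strand), a ligand of the β-catenin branch that fibroblasts can secrete, varied within both groups. Its values were 1.12, 0.187 and 2.12 CPM in EMT6-P and 1.13, 1.45 and 0.117 CPM in EMT6-PTR. The lowest values rested on 4 and 3 counts, so that 1 tumor of each group held almost no Wnt2 at this depth. EMT6-PTR differed from EMT6-P by a log2 fold change of -0.36 (SE 1.03, 95% interval -2.82 to 2.10, edgeR adjusted p = 0.900), and it changed sign to 0.17 without EMT6-PTR replicate 3.

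Among the Sfrp family, Sfrp2 (ENSMUSG00000027996.13, chromosome 3, 83766321 to 83774316, plus strand), a matrix-associated Wnt binding protein of fibroblasts, had the highest level. It was at 4.92, 15.3 and 15.5 CPM in EMT6-P and at 16.2, 24.9 and 11.5 CPM in EMT6-PTR. EMT6-PTR replicates 1 and 2 exceeded every EMT6-P tumor, but replicate 3, the library with the highest fibroblast marker sum, did not. The part of fibroblasts in the Sfrp2 values was not tested. The means were 11.9 ± 6.03 CPM and 17.6 ± 6.78 CPM (SD, n = 3 each), with a log2 fold change of 0.56 (SE 0.49, 95% interval -0.61 to 1.74, edgeR adjusted p = 0.645). Without any 1 of the 6 tumors the log2 fold change stayed above 0, between 0.19 and 0.80.

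Sfrp1 (ENSMUSG00000031548.7, chromosome 8, 23411502 to 23449632, plus strand), often silenced in breast cancer, spread over similar ranges in both groups. It was at 3.95, 5.47 and 8.21 CPM in EMT6-P and at 6.41, 9.97 and 3.20 CPM in EMT6-PTR, so that the lowest and the highest of the 6 tumors were both EMT6-PTR. EMT6-PTR against EMT6-P gave a log2 fold change of 0.15 (SE 0.48, 95% interval -0.99 to 1.29, edgeR adjusted p = 0.914).

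Sfrp4 (ENSMUSG00000021319.7, chromosome 13, 19623104 to 19632994, plus strand) was close to the detection limit. Its counts were 10, 1 and 18 in EMT6-P and 36, 2 and 7 in EMT6-PTR, which placed 1 tumor of each group within counting error of 0. The log2 fold change of 0.51 (SE 1.13, edgeR adjusted p = 0.867) turned to -1.19 without EMT6-PTR replicate 1, the tumor with the highest skeletal muscle marker sum.

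Frzb (ENSMUSG00000027004.3, chromosome 2, 80411970 to 80447625, minus strand), a Wnt binding protein first known from cartilage, was at 0.634, 1.35 and 0.424 CPM in EMT6-P and at 1.22, 1.17 and 0.117 CPM in EMT6-PTR. Replicates 1 and 2 of EMT6-PTR were alike, and replicate 3 held 3 counts. The log2 fold change was 0.04 (SE 0.84, 95% interval -1.99 to 2.06, edgeR adjusted p = 0.987), or 0.57 with replicate 3 of EMT6-PTR left out. Its direction also differed between tools, as limma-voom gave -0.41.

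Wif1 (ENSMUSG00000020218.11, chromosome 10, 121033960 to 121100650, plus strand), which sequesters Wnt ligands, was the only member with its highest primary tumor value in EMT6-PTR replicate 3. It was at 1.36, 0.467 and 1.04 CPM in EMT6-P and at 0.175, 0.891 and 4.53 CPM in EMT6-PTR. The lowest and the highest primary tumors were both EMT6-PTR, 26 times apart. The log2 fold change of 0.97 (SE 1.05, 95% interval -1.55 to 3.49, edgeR adjusted p = 0.709) rested on replicate 3 and was -0.88 without it.

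Dkk3 (ENSMUSG00000030772.6, chromosome 7, 112116017 to 112159057, minus strand), a divergent Dkk family member whose effect on Wnt signaling depends on context, was the most abundant gene of the set in EMT6-P. It was at 16.4, 42.8 and 27.2 CPM in EMT6-P and at 18.5, 31.4 and 15.5 CPM in EMT6-PTR. In both groups replicate 2 was the highest. The means were 28.8 ± 13.3 CPM and 21.8 ± 8.42 CPM (SD, n = 3 each), and the log2 fold change was -0.41 (SE 0.41, 95% interval -1.39 to 0.58, edgeR adjusted p = 0.691).

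Dkk2 (ENSMUSG00000028031.6, chromosome 3, 132085292 to 132180304, plus strand), a ligand of Lrp co-receptors, was at 2.10, 1.17 and 2.03 CPM in EMT6-P and at 5.06, 1.39 and 0.625 CPM in EMT6-PTR. The highest and the lowest primary tumors were EMT6-PTR replicates 1 and 3. The log2 fold change was 0.42 (SE 0.76, 95% interval -1.40 to 2.24, edgeR adjusted p = 0.833). It was -0.82 without EMT6-PTR replicate 1, the tumor with the highest skeletal muscle marker sum. The part of these markers in the Sfrp4 and Dkk2 values was not tested.

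**Figure D2:**
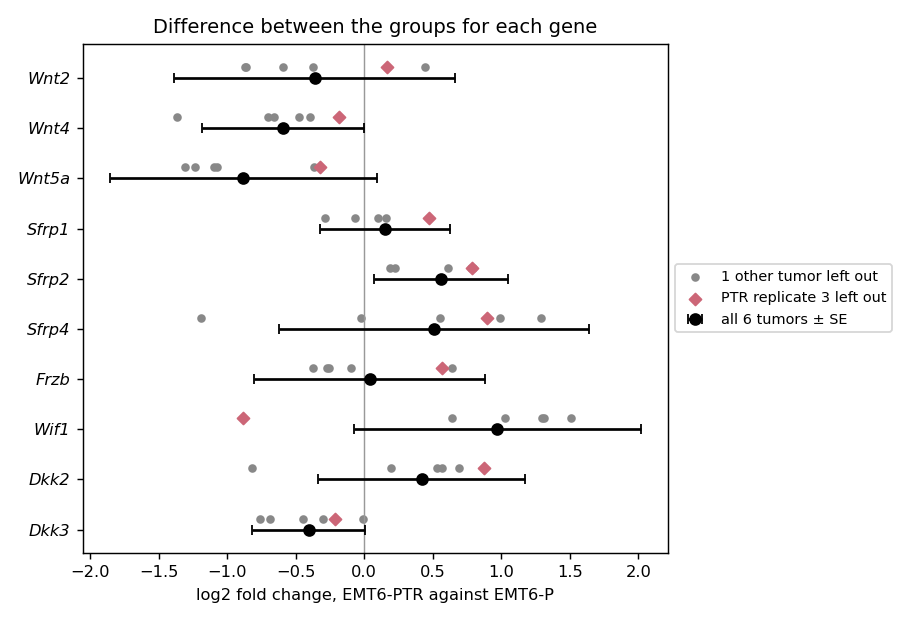
Log2 fold change of EMT6-PTR against EMT6-P for each gene, from edgeR. Black points with bars give the fit of all 6 primary tumors ± SE, grey points the fits without 1 other tumor, and red diamonds the fits without replicate 3 of EMT6-PTR. Wif1 moves from 0.97 to -0.88 without that replicate, and Dkk3, Wnt4 and Wnt5a stay below 0 in every fit shown. Dkk3 is at -0.0061 without EMT6-P replicate 2.

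As a set, the 10 genes had a median log2 fold change of 0.09, beside 0.03 over all genes tested, with 6 above and 4 below 0. No member was at least 2-fold higher in EMT6-PTR, beside 6.27% of all genes, and none was at least 2-fold lower, beside 1.29%. No member had all EMT6-PTR tumors above all EMT6-P tumors, a pattern of 9.52% of all genes, or all below, a pattern of 11.8%. The 95% intervals were wide. Those of Wnt2 and Sfrp4 included changes of more than 2 on the log2 scale in either direction. Those of Wnt4, Wnt5a, Frzb, Wif1 and Dkk2 did so in a single direction, reaching -3.22 for Wnt5a and 3.49 for Wif1. Differences of that size were therefore not excluded for these genes, of which Wnt5a was not a low one.

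The spread was uneven between the EMT6-PTR tumors. In EMT6-PTR replicate 3, 7 of the 10 members had their lowest value of the 6 primary tumors: Wnt2, Wnt4, Wnt5a, Sfrp1, Frzb, Dkk2 and Dkk3. The same held for 34.5% of all genes, and the next most frequent lowest tumor had 18.8%. The median deviation of the members from the EMT6-P mean was -1.06 on the log2 scale in replicate 3, compared with 0.35 and 0.12 in replicates 1 and 2. For Wnt5a the median of the other 5 tumors was 23.9 times the value in replicate 3, for Dkk2 3.24 times, for Sfrp1 2.00 times and for Dkk3 1.75 times.

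Several marker lists moved with that library. Of 8 fibroblast markers, 6 were highest in EMT6-PTR replicate 3. Among these, Pdgfra was at 345 CPM against 31.2 to 61.7 CPM in the other primary tumors. Dcn was at 3345 CPM against 32.2 to 104 CPM. Col1a1, at 2755 CPM, lay within the 2427 to 3708 CPM of the other primary tumors, and Thy1 was lowest in replicate 3 at 6.68 CPM. All 5 smooth muscle and pericyte markers were lowest, summing to 28.1 CPM against 81.1 to 520 CPM, and Cnn1 was at 0. Of 5 leukocyte markers, 4 were lowest, summing to 95.7 CPM against 213 to 301 CPM. The part of these lists in the low ligand and antagonist values was not tested. The spread between EMT6-PTR tumors was larger than between EMT6-P tumors, as a ratio of highest to lowest, for 7 of the 10 members, beside 82.5% of all genes.

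Levels of different genes were compared as CPM per kilobase of exon. In EMT6-P the order was Dkk3 (8.58 ± 3.95), Sfrp2 (5.52 ± 2.80), Wnt5a (1.70 ± 0.89), Sfrp1 (1.34 ± 0.49), Wnt2 (0.507 ± 0.429), Dkk2 (0.476 ± 0.140), Wif1 (0.394 ± 0.187), Wnt4 (0.269 ± 0.060), Frzb (0.248 ± 0.151) and Sfrp4 (0.11 ± 0.096; SD, n = 3). Each of the 9 neighboring pairs in that order overlapped in range between tumors. Within single tumors, 4 of the pairs kept their order in all 3 EMT6-P tumors: Dkk3 above Sfrp2, Sfrp2 above Wnt5a, Sfrp1 above Wnt2 and Dkk2 above Wif1. In EMT6-PTR the first 2 places were reversed, with Sfrp2 at 8.15 ± 3.15 and Dkk3 at 6.49 ± 2.51 CPM per kilobase. Dkk3 was at 4.89, 12.8 and 8.10 CPM per kilobase in EMT6-P replicates 1 to 3, and Sfrp2 at 2.29, 7.10 and 7.19. In EMT6-PTR, Dkk3 was at 5.51, 9.34 and 4.62 and Sfrp2 at 7.54, 11.6 and 5.35, so that Sfrp2 was above Dkk3 in each of these tumors. This reversal was noticed in the values and was not tested.

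Within the set, the 7 antagonists together outweighed the 3 ligands in every library. Their summed levels were 9.52, 22 and 18.5 CPM per kilobase in EMT6-P and 16.7, 24.3 and 12.8 in EMT6-PTR. The 3 ligands summed to 1.99, 3.05 and 2.38 in EMT6-P and to 2.14, 2.19 and 0.172 in EMT6-PTR. Replicate 3 therefore stood apart in the ligands, while its antagonist sum lay within the EMT6-P range.

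Wnt2, Wnt4 and Wnt5a were minor ligands in these tumors. Over all 19 Wnt ligands the most abundant was Wnt7b, at 85.9 ± 7.96 CPM per kilobase in EMT6-P, followed by Wnt10a, Wnt10b, Wnt9a and Wnt11, with Wnt5a sixth and Wnt2 eighth. Apart from Wnt10a and the members, these were named after their values were seen. The 19 ligands summed to 173, 137 and 172 CPM per kilobase in EMT6-P and to 135, 129 and 70.4 in EMT6-PTR. Without Wnt7b, EMT6-PTR replicate 3 was at 63.4, between 60.6 and 65.1 in the other EMT6-PTR tumors. In every library the ligands summed to more than the 7 antagonists of the set, with or without Wnt7b. In the metastasis the 19 ligands were at 61.0 and the 7 antagonists at 36.7 CPM per kilobase. The balance within the set thus depended on which ligands it held.

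**Figure D3:**
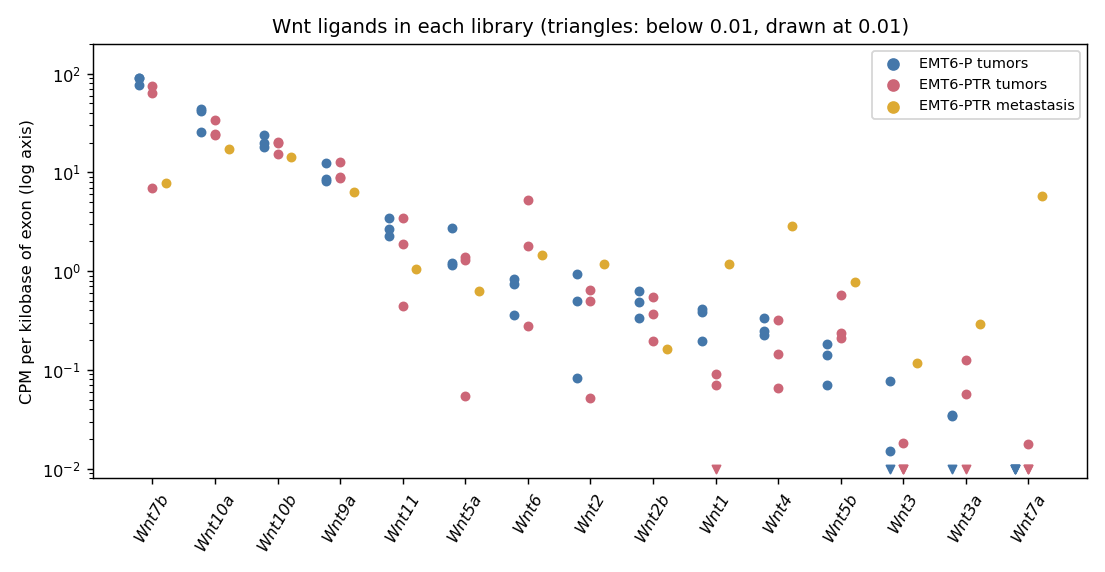
CPM per kilobase of exon (log axis) of the Wnt ligands with a group mean or metastasis value above 0.1, ordered by their EMT6-P mean, with 1 point per library. Triangles stand for values below 0.01. Wnt5a, sixth in order, has 1 EMT6-PTR tumor far below the others, and Wnt4 has its highest point in the metastasis.

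The metastasis held more of several members than any primary tumor, with Wnt4 showing the widest gap. Wnt4 was at 11.9 CPM in the metastasis (299 counts, 95% Poisson interval 10.6 to 13.4, for counting error only), 16 times the EMT6-PTR mean and above all 6 primary tumors. Sfrp2 was at 46.6 CPM (44.0 to 49.4), 2.66 times the EMT6-PTR mean, and Wnt2 was at 2.64 CPM (2.04 to 3.36), 2.93 times. These 3 genes and Sfrp1, at 11 CPM (9.77 to 12.4), were above all 6 primary tumors, which made 4 of 10 members beside 20.9% of all genes. Wif1, at 4.0 CPM, was 2.14 times the EMT6-PTR mean but within the range of the primary tumors. Single EMT6-PTR tumors moved the ratios: for Wnt4 it was 27.0 without replicate 1, and for Wif1 it was 1.47, 1.70 and 7.50 without replicate 1, 2 and 3, respectively.

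With Wif1, Wnt2, Wnt4 and Sfrp2, 4 members were at least 2-fold above the EMT6-PTR mean, beside 10.6% of all genes. In the other direction, 3 were at least 2-fold below it, Sfrp4, Frzb and Dkk2, beside 11.1%, and these 3 rested on 3, 9 and 27 counts in the metastasis. Without EMT6-PTR replicate 1, which had the highest value of all 3 genes among the EMT6-PTR tumors, none was, and without replicate 3 Wnt5a joined them. No member was below all 6 primary tumors, beside 24.1% of all genes. Dkk3 at 34.9 CPM and Wnt5a at 4.92 CPM lay inside the range of the primary tumors. With 1 library there is no replicate check of any of these differences.

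**Figure D4:**
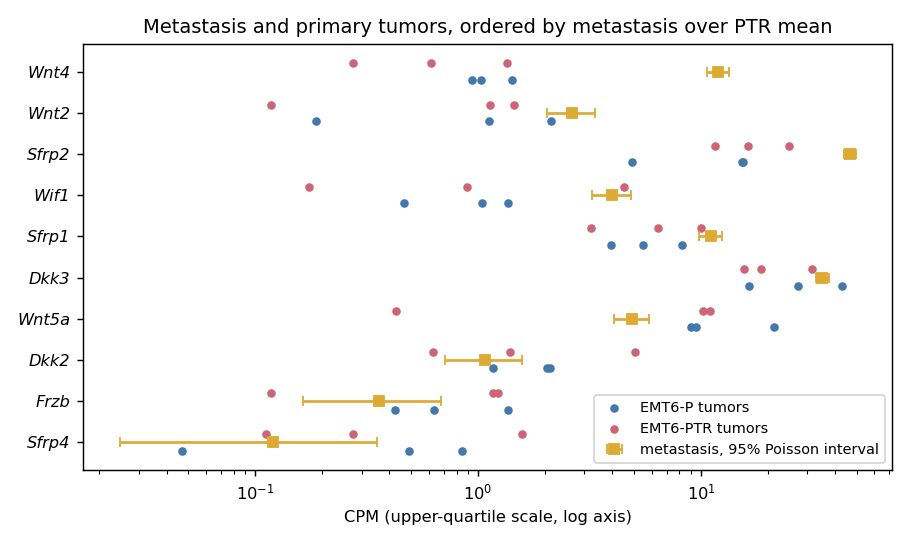
CPM (log axis) of each gene in the metastasis, with its 95% Poisson interval, and in the 6 primary tumors, ordered by the metastasis value over the EMT6-PTR mean. Wnt4, Wnt2, Sfrp2 and Sfrp1 lie above every primary tumor, and Sfrp4, Frzb and Dkk2 lie lowest relative to the EMT6-PTR mean.

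Markers of lung epithelium and endothelium were high in the same library. All 5 lung epithelial markers exceeded every primary tumor and summed to 7285 CPM, against 4.25 to 5.99 CPM in EMT6-P and 7.46 to 27.1 CPM in EMT6-PTR, with Sftpc at 2348 CPM and Scgb1a1 at 3007 CPM. In EMT6-PTR both of these were at 0 in every primary tumor. All 5 endothelial markers were also above every primary tumor and summed to 849 CPM, against 100 to 142 CPM. Of 8 fibroblast markers none was above every primary tumor and 2 were below every one. The 8 summed to 10153 CPM, against 3497 to 4793 CPM in EMT6-P. In EMT6-PTR replicates 1 to 3 they summed to 4264, 6294 and 16643 CPM. Wnt4, Wnt2, Sfrp1 and Sfrp2 transcripts of tumor cells and of the tissue around them cannot be told apart in this library.

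The rest of the pathway was described by 85 other genes in 7 roles, of which 61 were tested. None passed at an adjusted p of 0.05 in edgeR, and 9 had an unadjusted p under 0.05, 8 of them higher and 1 lower in EMT6-PTR. That was 14.8% of the 61, beside 11.4% of all genes. These counts depended on single tumors and were 3 without EMT6-P replicate 1 or 3 and 17 without EMT6-PTR replicate 1. Of 16 other ligands, 8 were tested and none had an unadjusted p under 0.05. The smallest p-values belonged to Wnt5b, Wnt6 and Wnt10a, with log2 fold changes of 1.36, 1.93 and -0.44 and edgeR adjusted p-values of 0.443, 0.473 and 0.509. Of 8 other secreted inhibitors none passed the filter, and Dkk1, Dkk4, Sost and Cer1 had 0 counts in all 7 libraries.

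On the receiving side, 3 of 15 tested Frizzled receptors and co-receptors had an unadjusted p under 0.05, all higher in EMT6-PTR, beside 11.4% of all genes in either direction. Lrp6, a co-receptor that Dkk2 binds, had a log2 fold change of 0.94 (SE 0.26), the receptor Fzd4 of 0.91 (SE 0.27) and Fzd7 of 0.78 (SE 0.27). The edgeR adjusted p-values of these 3 genes were 0.421, 0.421 and 0.427. In each of them all EMT6-PTR tumors were above all EMT6-P tumors, as in 9.52% of all genes. R-spondins amplify Wnt signals. Of 9 R-spondins and their receptors, 6 were tested, and Lgr4 had an unadjusted p under 0.05 (log2 fold change 2.64, SE 0.97, edgeR adjusted p = 0.427). Lgr4 was at 13.7, 42.0 and 227 CPM in EMT6-PTR, highest in replicate 3. Rspo2 and Lgr6 followed with log2 fold changes of 1.18 and -1.29.

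Of the genes for ligand secretion, Wls, the carrier of Wnt proteins to the cell surface, had a log2 fold change of 1.3 (SE 0.60, edgeR adjusted p = 0.454). It was at 151, 571 and 912 CPM in EMT6-PTR and at 181 to 284 CPM in EMT6-P, so that the lowest and the highest primary tumors were both EMT6-PTR. Porcn and Vps35 had log2 fold changes of 0.24 and -0.19. Of 19 intracellular components, all tested, 4 were higher and 1 lower at an unadjusted p under 0.05, beside 11.4% of all genes in either direction. Apc, a scaffold of the β-catenin destruction complex, had a log2 fold change of 0.60, the repressor Tcf7l1 of 1.68, and the coactivator Pygo2 of -0.41.

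Of 12 target genes, 10 were tested and none had an unadjusted p under 0.05. Axin2, a direct target that reports β-catenin signaling in many tissues, was at 34.0 to 56.6 CPM in all 6 primary tumors and at 43.9 CPM in the metastasis, with a log2 fold change of -0.02 (SE 0.22, 95% interval -0.56 to 0.52, edgeR adjusted p = 0.972). Lef1 did not pass the filter. Ccn4, Ccn5 and Bambi had the smallest p-values of the targets, with log2 fold changes of -0.30, 1.21 and -0.56 and edgeR adjusted p-values of 0.519, 0.524 and 0.544.

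For each member the genes with the most similar pattern were sought among those tested, by the root mean square difference of log2 CPM centered over the 7 libraries. Wnt4 was nearest to Adgre5 (0.16) and Trem1 (0.28), Dkk3 to Clmp (0.19) and AC125149.1 (0.24), and Sfrp1 to Qpct and Rundc3b (0.22 each). Frzb was nearest to Gm12715 (0.24) and Hk2 (0.28), Dkk2 to Disc1 and Kmo (0.28 each), and Wnt5a to Htr1b (0.33) and Ankrd1 (0.40). The nearest genes were farther away for Sfrp2 (Sh2d2a, 0.38, and Eml6, 0.40), Wif1 (Ppl, 0.40, and 2700033N17Rik, 0.46), Wnt2 (Naprt, 0.48, and Trabd2b, 0.52) and Sfrp4 (Plpp7, 0.58, and Tmem38a, 0.59). No member was among the nearest genes of another member.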

How the data were processed

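The authors prepared stranded libraries from polyadenylated RNA (TruSeq), aligned reads with STAR 2.6.0a to GRCm38 with GENCODE M16 and estimated gene counts with RSEM 1.3.1, after quality control with FastQC 0.11.5. The deposited table holds these expected counts per gene, unfiltered and not normalized, and 13.5% to 15.6% of values per library were fractional. The strand setting of the counting is not given in the sources used here, and antisense genes overlap exons of Wnt5a and Sfrp2, with at most 5 counts in a library.

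Identifiers were matched to GENCODE M21 (53360 of 53465). Counts were rounded, filtered with filterByExpr, scaled with upper-quartile factors and compared in edgeR 4.0.16 (quasi-likelihood test, 3 against 3 tumors, Benjamini-Hochberg over 15645 genes, threshold 0.05) in R 4.3.3. Standard errors are the log2 fold change over the square root of F. The fits were tested on simulated data. Alternatives were TMM scaling, DESeq2 1.42.0, limma-voom (limma 3.58.1), other filters, the metastasis as an added group, a replicate block and each tumor left out in turn. The metastasis, with no replicate, has no test. Depth was 20430110 to 25213472 counts. The Poisson intervals of the metastasis and the floor of 3 counts cover counting error only. Intervals of log2 fold changes cover the spread between these samples, which may not be separate mice.

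The 10 genes, the gene lists and the tests were chosen with earlier results of these data known. Named genes were the 10 members, the 3 genes with the smallest p per pathway role, Axin2 and Lef1, the 2 nearest genes of each member, and the first markers of a list. Other named genes were chosen after their values were seen. Wnt5a, Wnt11, Lgr6, Wnt6 and Wnt5b, and the markers Dcn, Lum, Fap, Col3a1, Comp, Fmod, Ckm, Ager and Vwf, are on gene lists that the study chose on these samples, so that their directions are not independent of that choice. By a fold-change cutoff, the study lists Wnt5a, Wnt11 and Lgr6 as lower and Wnt6 and Wnt5b as higher in EMT6-PTR. The edgeR fit here gave the same signs but called none of these genes. Protein sequences and 4 promoters were not used here.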

Additional observations from a re-analysis of the deposited data

How the results depend on the processing

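Of 125 refits of single members (13 alternatives, fewer where a member fell below a filter), 110 kept the direction and none passed an adjusted p of 0.05. Wnt4, Wnt5a, Sfrp2 and Dkk3 kept their direction in all of theirs, but Dkk3 was at only -0.0061 without EMT6-P replicate 2. With 1 tumor left out, log2 fold changes ranged from -0.87 to 0.44 for Wnt2, -0.29 to 0.48 for Sfrp1, -1.19 to 1.29 for Sfrp4, -0.37 to 0.64 for Frzb, -0.88 to 1.51 for Wif1 and -0.82 to 0.88 for Dkk2. limma-voom gave -0.41 for Frzb and -0.067 for Dkk2. The cause of these reversals was not tested. DESeq2 called 281 genes where edgeR called 0, none of them among the 6 members to which it gave an adjusted p (it gave none to Wnt2, Wnt4, Sfrp4 and Frzb). Members at least 2-fold higher numbered 1 under TMM scaling and 0 to 2 with 1 tumor left out, and members at least 2-fold lower numbered 1 under limma-voom and 0 to 3 with 1 tumor left out, against 0 and 0. The other pathway genes with an unadjusted p under 0.05 numbered 9, or 3 to 17 with 1 tumor left out. Members at least 2-fold lower in the metastasis numbered 3, or 0 to 4 with 1 EMT6-PTR tumor left out. With at least 10 counts in every library 5 of the 10 members remained in the fit. EMT6-PTR replicate 3 was lowest for 7 members also under TMM scaling. It was lowest for 5 when only members averaging at least 1 CPM were counted, a cut that leaves out Wnt4, Sfrp4 and Frzb. The share of all genes under that cut was not calculated. These 2 checks were chosen after seeing the data.

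Groups share replicate numbers, but deviations of same-numbered tumors correlated at 0.26, 0.25 and 0.04 over genes, not every tumor correlated best with its own number, and the labels do not say that a number pairs samples. With the replicate block 0 genes were called, 1 member was at least 2-fold lower and Frzb had a log2 fold change of -0.19. At this depth Sfrp4, Frzb, Wnt2 and Wif1 rested on 4 or fewer counts in single tumors.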

Other observations

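Several Wnt genes outside the 10 were nearly silent in the primary tumors and present in the metastasis, and were picked after their values were seen. Wnt7a, a ligand of epithelia, had 455 counts in the metastasis and at most 1 in each primary tumor. The R-spondin Rspo1 had 190 counts there and at most 5 elsewhere. Nkd1, a feedback inhibitor and target of β-catenin signaling, was at 98.0 CPM in the metastasis and at 0.625 to 2.45 CPM in the primary tumors, whereas the target Axin2 was at 43.9 CPM, within their range. Wnt1 had 71 counts in the metastasis, 10 to 21 in EMT6-P and 0 to 5 in EMT6-PTR. Wnt7b went the other way, at 38.4 CPM in the metastasis and 34.4 CPM in EMT6-PTR replicate 3. EMT6-PTR replicates 1 and 2 were at 364 and 312 CPM and EMT6-P at 376 to 445 CPM. All EMT6-PTR tumors were thus below all EMT6-P tumors for Wnt7b, as in 11.8% of all genes (log2 fold change -0.83, edgeR adjusted p = 0.649). The metastasis is 1 library, lung epithelial markers were high in it as well, and their part in these values was not tested.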
